A study of Mus musculus with 2 samples.

Results

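The enteroendocrine cells compared here are 303 of the 2335 mouse small-intestinal crypt cells kept by the authors. They were chosen by 2 counts: at least 20 unique transcript counts (UMIs) of Chga, which encodes the granule protein chromogranin A, and hashtag antibody counts of tags 1 and 2 together at least 3 times those of tags 3 and 4 together. Among them, 146 cells held at least 3 UMIs of YFP and are called YFP-high, 107 held 1 or 2, and 50 held none and are called YFP-negative. The labels name 1 mouse with the alleles ChgaCreER-tdTomato and Rosa26LSL-eYFP, given 1 mg of tamoxifen daily for 5 days, and every cell of both groups shares these alleles and this treatment. Sorted eYFP+ cells and a bulk epithelial sort were marked with hashtag antibodies and run as 1 gene expression library (10x 3-prime chemistry) beside 1 hashtag library. The sources used here do not say which tag marks which sort. Neither the age of the mouse nor the cells that the Chga-driven Cre is active in is stated there, and Cre activity outside the selected cells is not described here.

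Enteroendocrine cells are scattered secretory cells of the gut epithelium that release hormones or serotonin from dense-core granules. They arise from Neurog3-expressing progenitors in the crypt, and a late programme of transcription factors such as Neurod1, Pax6 and Isl1 accompanies the choice of hormone. Most belong to the enterochromaffin lineage, which makes serotonin through Tph1, or to lineages that make peptides such as GIP, ghrelin, cholecystokinin and the glucagon family. In the reporter used here, Cre recombinase is fused to a receptor domain that tamoxifen activates. After recombination the Rosa26 locus transcribes YFP in the cell and in its descendants, so YFP is a record of past Cre activity and tdTomato a transcript tied to Chga itself.

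Cre and tdTomato carry the name of Chga, so the 250 bases before the RefSeq start of that gene are shown (GRCm38.p6, chr12:102554691-102554940, plus strand, 62.4% G or C). The capitals mark TGACGTAA, the letters of the cAMP response element known from this promoter, of which both strands were searched. It was found on the plus strand, with its first base at position -44 from the start. Of 32851 RefSeq promoters of that length, 147 (0.4475%) hold it on either strand. The files hold no binding or methylation data on this region, and the match is a description.
Chga promoter: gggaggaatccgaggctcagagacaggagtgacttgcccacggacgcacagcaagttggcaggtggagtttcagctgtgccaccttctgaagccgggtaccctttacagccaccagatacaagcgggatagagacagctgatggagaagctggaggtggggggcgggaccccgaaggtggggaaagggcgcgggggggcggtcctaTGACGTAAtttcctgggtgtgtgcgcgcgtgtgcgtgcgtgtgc

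YFP and Chga chose the cells, so their values describe the groups and support nothing. YFP ranged from 3 to 38 UMIs in YFP-high cells, with a median of 5. Chga ranged from 20 to 659 UMIs in YFP-high cells (median 179) and from 22 to 295 in YFP-negative cells (median 83). Close to the cuts, the 34 cells with exactly 3 YFP UMIs had a median depth of 9718 UMIs and the 46 with 2 had 9715. The 3 cells with 20 to 24 Chga UMIs had a median of 21, and 4 cells with 15 to 19 stayed outside. For the tags, 5 cells lay at 3 to 4 times and 8 cells at 2 to 3 times.

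The groups differed in depth. YFP-high cells held 3873 to 80993 UMIs, with a median of 15301. Cells with 1 or 2 YFP UMIs held a median of 9415, and YFP-negative cells 1041 to 73303 with a median of 6024. YFP-negative cells were 44.4% of the 45 selected cells below 5000 UMIs (exact 95% interval 29.6 to 60%), 20% of the 80 cells from 5000 to 10000, 10.2% of the 98 from 10000 to 20000, and 5.0% of the 80 deeper cells (1.38 to 12.3%). A YFP-negative cell is thus a cell in which YFP was not detectable at its depth. The limit that a count of 0 allows, 3 UMIs, was 498 CPM (counts per 1000000 UMIs) at the median over these 50 cells, from 40.9 to 2882. The median YFP level of YFP-high cells was 331 CPM, and in 16 of the 50 cells the limit lay below it. These 16 are among the 30 YFP-negative cells of at least 5000 UMIs that are compared below. In the rest of those 30, YFP at that level cannot be told from 0.

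**Figure D1:**
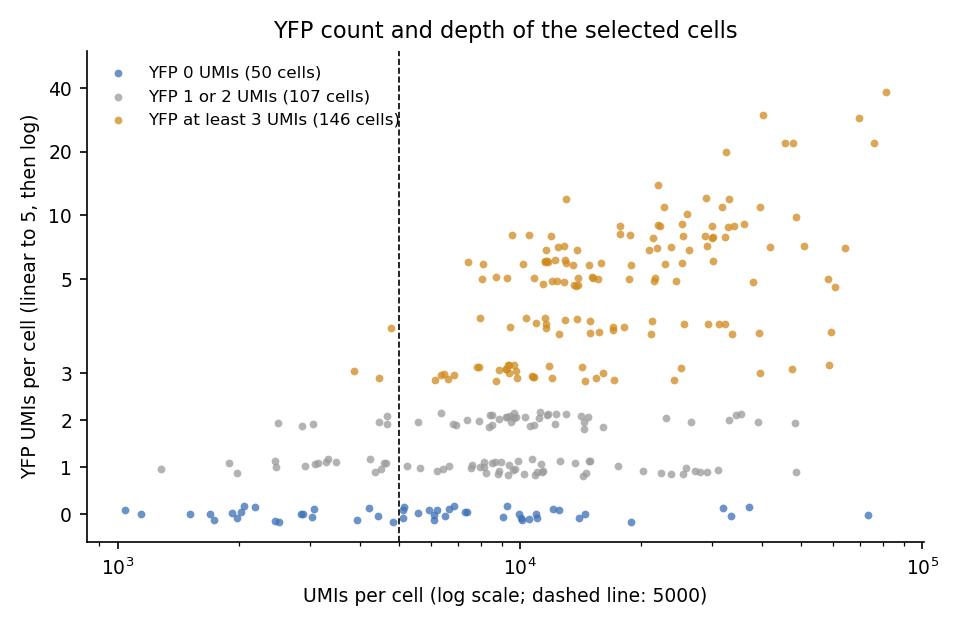
YFP UMIs (linear to 5, then log) against all UMIs of a cell (log scale), 1 point per selected cell with a small vertical jitter; colours mark the 50 cells with 0, 107 with 1 or 2 and 146 with at least 3 YFP UMIs. Cells with 0 crowd to the left of the 5000 UMI line, where 20 of them and 3 YFP-high cells lie.

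To compare genes at matched depth, each cell was thinned at random to 5000 UMIs and cells with fewer were set aside. This kept 143 YFP-high, 85 intermediate and 30 YFP-negative cells. The cells kept still differed before thinning, with medians of 15629 and 9606 UMIs, and the part of that difference in the gene results was examined only in a depth window given at the end. After thinning, YFP-high cells showed 1975 to 2459 genes (median 2276) and YFP-negative cells 2120 to 2441 (median 2260.5), and mitochondrial UMIs were 3.1% and 3.71% at the median. UMIs were summed per group. A gene is called higher or lower when the summed levels differ by at least 1.5-fold on log2(CPM + 10) and their exact 95% Poisson intervals do not overlap. Both groups come from 1 library and 1 labelled mouse, cells are not replicates, and there is no test and no p-value. All intervals cover counting error only.

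At matched depth, granins, Neurod1 and tdTomato had close levels in both groups, all cells of which were chosen for Chga. Serotonin genes were not called, with a median log2 ratio of 0.32. The BMP targets Id1 and Id2, the secretin gene Sct and the lectin gene Reg4 were higher in YFP-high cells over many cells. So were the exocytosis gene Rab3c and the cell-cycle inhibitor gene Cdkn1a. The log2 ratios of these genes ran from 0.69 (Cdkn1a) to 1.49 (Id1). In cells outside the tag rule, however, Sct and Rab3c had negative ratios, and Reg4 was highest in intermediate cells. Gip, Ghrl and Isl1 were higher through few cells, and stem and cycling markers had negative ratios, of which that of Slc12a2 alone was called. Of 3124 genes with at least 50 UMIs over both groups, 61 were higher in YFP-high cells (1.95% of genes tested) and 27 were lower (0.864%). The median log2 ratio of all tested genes was 0.04. The YFP-high group has more cells, so a sparse gene meets the minimum more easily when it is high there. Without the minimum more genes were called lower, as given near the end. The excess of higher over lower genes, and the shares set beside gene lists below, carry this limit. The list of called genes depended on the draw. With a second random draw, 39 of the 61 and 10 of the 27 were called again. Scaling each cell's counts to 5000 UMIs without any draw, an alternative chosen after seeing the data, called 35 and 9 of them, and 32 and 4 were called under both of these and with raw sums over all cells. The genes called higher therefore include a group that was called each time, whereas most calls of lower genes rested on the draw.

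**Figure D2:**
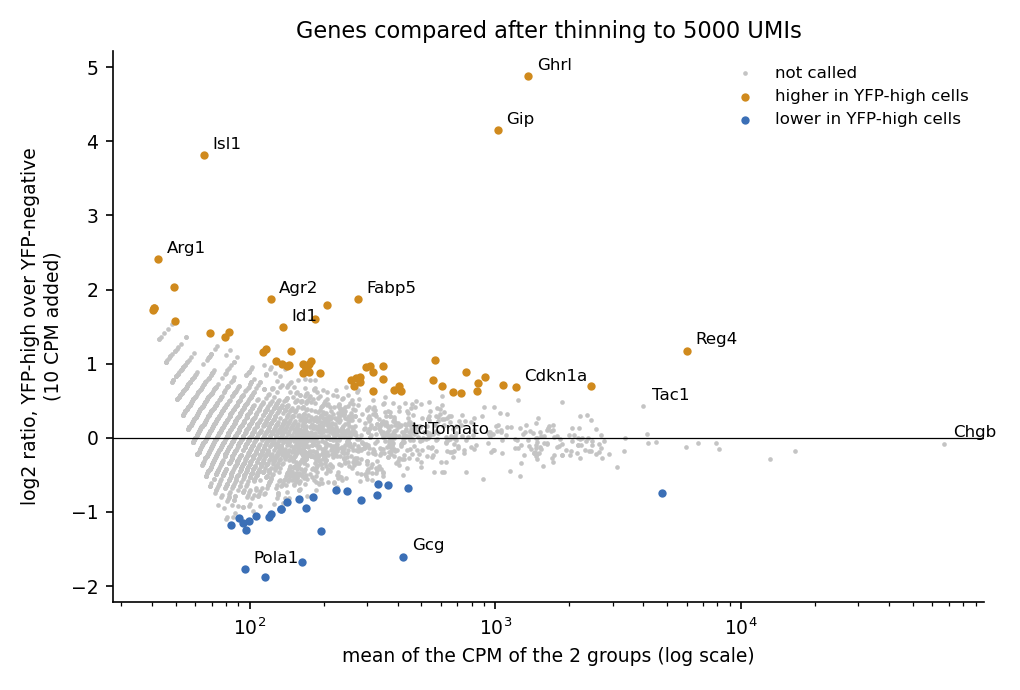
Log2 ratio of summed CPM, YFP-high over YFP-negative cells (10 CPM added), against the mean of both levels (log scale), 1 point per tested gene without YFP, which chose the groups. The 60 other genes called higher (orange) reach 4.88 (Ghrl), the 27 called lower (blue) lie between -0.63 and -1.88, and Chgb and tdTomato lie near 0; Isl1 had 0 UMIs in YFP-negative cells, so its height depends on the 10 CPM added.

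Genes of the shared endocrine programme had close levels. Chgb, which encodes chromogranin B, the most abundant granin here, had 0, 346 and 625 UMIs as the lowest, median and highest YFP-high cell and 28, 352 and 656 in YFP-negative cells. The groups overlapped almost fully, and the summed levels were 65327 CPM (64736 to 65922) against 69020 (67697 to 70363). Neurod1, a transcription factor of endocrine differentiation, was summed to 634 CPM (577 to 695) and 640 CPM (518 to 782). Of 11 measured genes of granins and prohormone processing, 0 were called in either direction and the median log2 ratio was -0.03. Examples are Pcsk1, a prohormone convertase (0.42), Cpe, the carboxypeptidase that trims prohormones (0.17), and Pam, which amidates peptides (-0.25). Of 15 measured identity genes, 1 was higher (Isl1) and 0 were lower, with a median of 0.10, also with Isl1 at its bound.

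None of the serotonin genes was called either. Of 7 measured members of the pathway beside Tph1, 0 were called, with a median log2 ratio of 0.32 against 0.04 for all genes. Ddc, the decarboxylase after Tph1, was at 1246 against 993 CPM (0.32), and the vesicle transporters Slc18a1 and Slc18a2 had ratios of -0.07 and -0.16. Tph1 itself, which defines the strata below, stood at 2369 CPM (2258 to 2485) against 2373 (2133 to 2633).

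The Chga-linked tdTomato transcript was not itself used to choose cells. However, every cell of both groups was chosen for at least 20 Chga UMIs, so tdTomato is not independent of the choice. Its thinned counts ran from 0 over a median of 2 to 10 UMIs in YFP-high cells and from 0 over 2 to 9 in YFP-negative cells, so the groups overlapped throughout. The summed levels were 415 CPM (369 to 465) and 427 CPM (329 to 545), a log2 ratio of -0.04. It was found in 113 of 143 YFP-high cells (79.0%; 71.4 to 85.4%) and in 19 of 30 YFP-negative cells (63.3%; 43.9 to 80.1%). In stem-type comparison cells of the same library (168 cells of tags 3 and 4 with at least 50 Olfm4 and at most 2 Chga UMIs, thinned alike), which should lack it, the share was 4.76%. Intermediate cells stood at 402 CPM. With thinning to 10000 UMIs, where 14 YFP-negative cells were left, the ratio was 0.69. It was not called in 19 of 20 alternatives.

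The largest ratios belonged to peptide hormones held by few cells. Ghrl (ENSMUSG00000064177), which encodes ghrelin, had a median of 0 and a maximum of 979 UMIs in YFP-high cells, and a median of 0 and a maximum of 5 in YFP-negative cells. The sums were 2643 CPM (2526 to 2765) against 80.0 (41.3 to 140), 33.0-fold (counting interval 18.9 to 64.1). However, 5 cells held 1789 of its 1890 UMIs, 7 of 143 YFP-high cells had at least 10 UMIs, and 0 of 30 YFP-negative and 0 of 85 intermediate cells did. The share of cells with any Ghrl UMI was 18.2% in YFP-high and 23.3% in YFP-negative cells, beside 8.33% in the stem-type cells, so it was not the share but a few very high cells that set the sum. Without the 5% of cells richest in the gene in each group the log2 ratio was -0.01.

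Gip (ENSMUSG00000014351), the gene of the incretin GIP, showed the same form. Its highest cells had 416 UMIs in the YFP-high and 3 in the YFP-negative group, both with medians of 0. At least 10 UMIs were found in 9 of 143 and 0 of 30 cells, and 5 cells held 1161 of 1389 UMIs. The sums were 1943 CPM (1842 to 2048) and 100 CPM (56.0 to 165), 19.4-fold (11.7 to 34.8). A count of 0 in 30 cells allows a share of up to 11.6% (exact), so the 6.29% share of Gip-rich cells in the YFP-high group is within what the YFP-negative group could hold.

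Cck and Gcg show how single cells weigh on such sums. Cck, the gene of cholecystokinin, was at 3022 CPM (2896 to 3153) against 1867 (1654 to 2099) and called higher (0.69), with 14 YFP-high and 3 YFP-negative cells at 10 UMIs or more. In the cells with Xist UMIs described at the end Cck was at -2.0. Gcg, the proglucagon gene, was called lower, with 204 CPM (172 to 240) and 640 CPM (518 to 782) and a log2 ratio of -1.60, but 1 YFP-negative cell held 93 of the group's 96 UMIs, and 4 YFP-high cells held at least 10 UMIs. Without the 5 highest cells of each group, a larger share of the 30 YFP-negative than of the 143 YFP-high cells, Gcg was at 0.90. Cells with at least 10 UMIs of Gip, Ghrl, Cck and Gcg together were 21 of 143 YFP-high (14.7%; 9.33 to 21.6%), 1 of 85 intermediate (1.18%) and 5 of 30 YFP-negative cells (16.7%; 5.64 to 34.7%). These shares overlap, but the YFP-negative cells lay near the cut: their sums were 10, 11, 17, 26 and 284 UMIs, against 12 to 979 with a median of 187 in the 21 YFP-high cells. Sums above 100 UMIs were found in 16 of 143 YFP-high cells (11.2%; 6.53 to 17.5%) and in 1 of 30 YFP-negative cells (3.33%; 0.0844 to 17.2%), a cut chosen after the values were seen. Of 8 measured peptide hormone genes, 5 were higher and 1 was lower, beside 1.95% and 0.864% of all tested genes. Tac1, the tachykinin gene of enterochromaffin cells, was at 0.43 and Vgf at -0.04.

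Isl1 (ENSMUSG00000042258), a LIM-homeodomain factor of peptide-hormone lineages, was found in 18 of 143 YFP-high cells (12.6%; 7.63 to 19.2%), with 93 UMIs and a maximum of 17 per cell, in 1 of 85 intermediate cells, and in 0 of 30 YFP-negative cells. Against a limit of 3 counts over the YFP-negative group (20 CPM), its 130 CPM (105 to 159) was 6.50-fold higher. With counting error in both groups, the interval of the ratio starts at 5.18-fold. A count of 0 in 30 cells allows a share of up to 11.6% (exact), which overlaps the interval of the YFP-high share. Without thinning, 2.0% of all 50 YFP-negative cells had Isl1, with 4 UMIs. Isl1 was called in 16 of 20 alternatives.

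**Figure D3:**
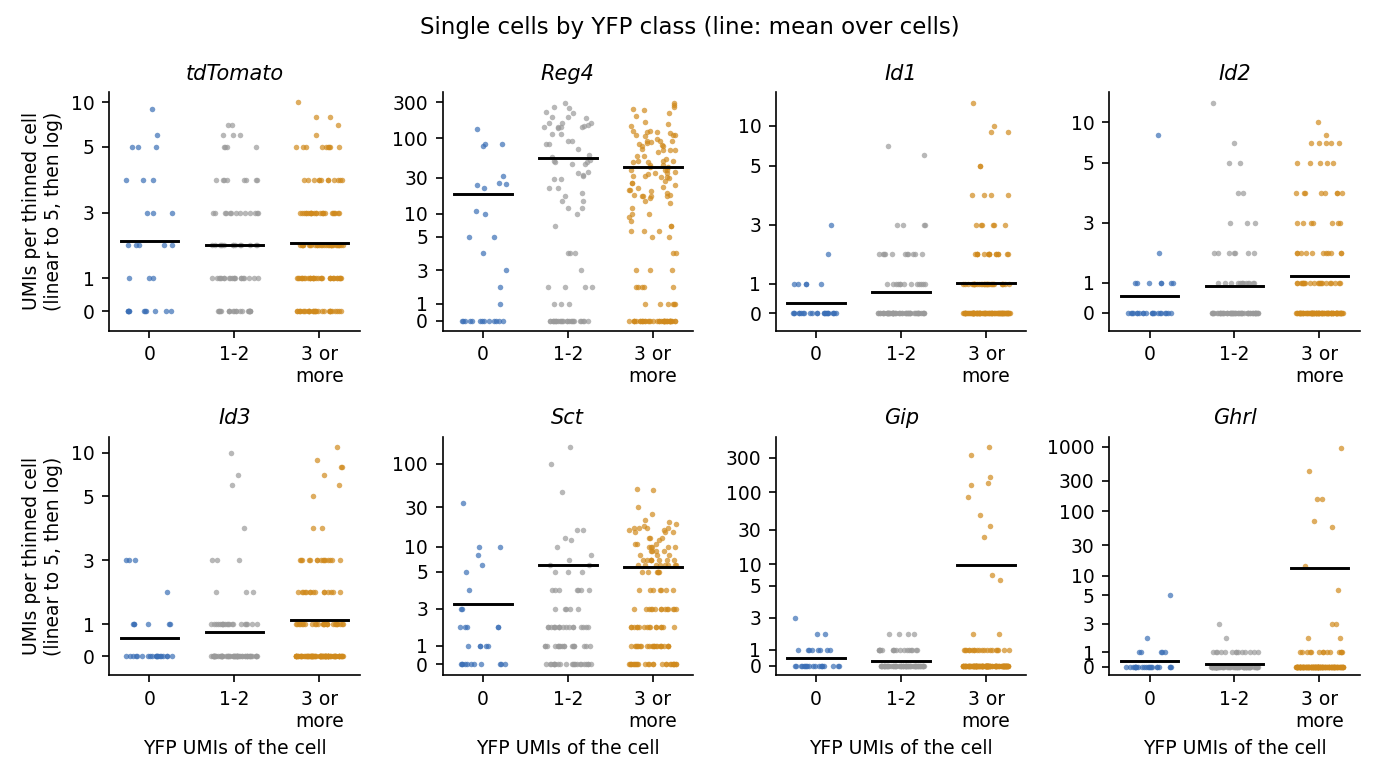
Thinned UMIs per cell (linear to 5, then log) for 8 genes, 1 point per cell with horizontal jitter, by YFP class (30 cells with 0, 85 with 1 or 2 and 143 with at least 3 YFP UMIs); black lines are means over cells. tdTomato overlaps in all classes, Id1 is found in 42.7% of cells at high YFP and 23.3% at 0, and the means of Gip and Ghrl rest on 9 and 7 cells with at least 10 UMIs.

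Id1, Id2, Id3 and Sct, from the list of crypt-to-villus axis genes, were higher across many cells. Id1, Id2 and Id3 encode inhibitors of helix-loop-helix factors and are targets of BMP signalling, which increases towards the villus, where enterochromaffin and L cells switch to secretin. Id1 had 147 UMIs over the YFP-high and 10 over the YFP-negative cells, 206 CPM (174 to 242) against 66.7 (32.0 to 123), 3.08-fold (1.63 to 6.57). It was found in 42.7% (34.4 to 51.2%) and 23.3% (9.93 to 42.3%) of cells, beside 35.3% of intermediate cells. Over the 4 YFP classes of 0, 1 or 2, 3 to 5, and 6 or more UMIs, its level was 66.7, 141, 187 and 228 CPM. Id2 was at 243 against 113 CPM (2.15-fold, 1.30 to 3.77) and Id3 at 228 against 113 CPM (2.01-fold, 1.22 to 3.54), with values of 215 and 278 CPM for Id2 and 200 and 262 CPM for Id3 in the 2 highest classes. All 3 Id genes thus had their lowest level in cells without YFP UMIs and their highest in those with at least 6. These classes are cut on raw YFP UMIs and also differ in depth. Before thinning, the medians were 9606, 10696 and 15629 UMIs in YFP-negative, intermediate and YFP-high cells of at least 5000 UMIs. The part of depth in this order was not tested.

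Sct, the secretin gene, had a median of 3 and a maximum of 50 UMIs in YFP-high cells and 1 and 34 in YFP-negative cells. The levels were 1158 CPM (1080 to 1240) and 653 CPM (530 to 796), 1.77-fold (1.44 to 2.21), and intermediate cells stood at 1202 CPM. The list of this axis also holds Ghrl, Gcg and Tac1, and it shares these and Sct with the peptide hormone list. Of its 8 measured genes, 5 were higher and 1 was lower, beside 1.95% and 0.864% of all tested genes. The median log2 ratio was 0.88. Ghrl, among the 5, rested on few cells, and Tac1, at 1.35-fold (1.23 to 1.48), was not called. Id1 was called in 19 of 20 alternatives and kept its direction in the 18 that change cells, depth or scaling, from 0.83 to 3.08. Id2, Id3 and Sct kept their direction in those 18 too, with lowest values of 0.35, 0.13 and 0.17, all in the cells with Xist UMIs described at the end. The split outside the tag rule, where Sct was below 0, is not among those 18.

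Among enterochromaffin genes, Reg4 and Ucn3 were higher and the other 10 measured were not called, beside 1.95% of all tested genes called higher. Reg4, a secreted lectin of enterochromaffin and deep crypt secretory cells, had medians of 17 UMIs in YFP-high and 2.5 in YFP-negative cells, with maxima of 292 and 134. Its sums were 8331 CPM (8121 to 8546) and 3680 CPM (3379 to 4000), 2.26-fold (2.07 to 2.47). Intermediate cells, at 11096 CPM, lay above both. Ucn3, the gene of the peptide urocortin 3, was at 175 against 80.0 CPM, 2.19-fold (1.21 to 4.34). Afp, which marks part of the enterochromaffin cells, was at 2653 against 2253 CPM (0.23). In cells of 8000 to 30000 UMIs only (102 against 13), Reg4 was at 0.37.

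Some broadly found genes also differed. Rab3c, a small GTPase of regulated exocytosis, had 0, 4 and 18 UMIs as lowest, median and highest in YFP-high and 0, 2 and 8 in YFP-negative cells, with 985 CPM (913 to 1060) and 527 CPM (417 to 656) and a log2 ratio of 0.89. It was 1 of 12 measured exocytosis genes that was called. Cdkn1a, the p21 inhibitor of the cell cycle, was at 1499 CPM (1411 to 1592) against 927 (779 to 1094), 0.69, and had medians of 7 and 4.5 UMIs. It was the 1 gene called of 5 measured endocrine progenitor factors; Sox4 was at -0.37 and Hes6 at 0.06. Rgs2, a regulator of G protein signalling, was at 772 CPM against 367 (1.05), and Glud1, the mitochondrial glutamate dehydrogenase, at 1333 against 807 (0.72). Fam183b (0.97) and Mettl26 (0.96) were higher as well. These last 4 genes were chosen after their values were seen, because they were called in at least 17 of 20 alternatives, as were Id1, Id2, Rab3c, Fabp5, Gip, Cdkn1a, Reg4, Ghrl and Sct.

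Fabp5 (ENSMUSG00000027533), a fatty acid-binding protein, was at 441 CPM (393 to 492) against 113 (66.0 to 182), 3.89-fold (2.39 to 6.76), and intermediate cells were at 21.2 CPM. It was found in 31 of 143 YFP-high and 2 of 30 YFP-negative cells, and 5 YFP-high cells held 224 of 315 UMIs. Gstk1 (ENSMUSG00000029864), a mitochondrial and peroxisomal glutathione transferase, was spread more widely. It was found in 43.4% of YFP-high and 23.3% of YFP-negative cells, at 283 CPM (245 to 324) against 86.7 (46.1 to 148), 3.26-fold (1.86 to 6.23), with 235 CPM in intermediate cells. Arg1, the urea-cycle arginase, had 56 UMIs against 1, 11.7-fold (2.02 to 472). Over the 18 alternatives that change cells, depth or scaling its log2 ratio was 2.12 to 2.99, 1.75 without the 5% of cells richest in it, and in the cells outside the tag rule it was 2.06. Kdm6a (61 against 2 UMIs, 6.4-fold, 1.70 to 54.0) is an X-linked histone demethylase, and Nefm (49 against 2, 5.14-fold, 1.35 to 43.6) a neurofilament subunit. C1qa, a complement subunit chain, had the same 49 against 2 UMIs as Nefm, while its partners C1qb and C1qc had 0 UMIs in all 3 YFP classes. Serhl, named for its likeness to a serine hydrolase, had 48 against 2 UMIs (5.03-fold, 1.32 to 42.8). Kdm6a and Serhl depended on the draw, with log2 ratios of 2.03 and 1.72 in the first and 0.57 and -0.64 in the second.

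Of 12 listed genes of goblet cells, the mucus-secreting neighbours in the epithelium, 4 reached the UMI minimum, and these 4 were higher. A sparse gene reaches that minimum more easily when it is high in the larger YFP-high group. Agr2 had 141 UMIs against 7, Fcgbp 89 against 6, Spink4 233 against 13 and Tff3 760 against 95. The count of 4 of 4 is therefore partly set by the minimum and is not read as an enrichment. Agr2, a disulphide isomerase for mucin folding, was at 197 against 46.7 CPM (4.23-fold, 2.0 to 10.7), and the secreted Spink4 at 326 against 86.7 (3.76-fold, 2.16 to 7.17). Fcgbp, a mucus protein, had a log2 ratio of 1.43 and the trefoil peptide gene Tff3 of 0.74. These sums rested on few cells. For Spink4, 5 YFP-high cells held 162 of 233 UMIs, and the share of cells with a UMI (39.9% and 33.3%) was below the 45.2% of the stem-type cells. Cells with at least 10 UMIs of 6 goblet genes together were 6 of 143 YFP-high, 3 of 85 intermediate and 0 of 30 YFP-negative cells. Summed over the 12 goblet markers, cells held 0 to 212 UMIs (median 5) in the YFP-high and 0 to 17 (median 3) in the YFP-negative group. The part of these cells in the result was not tested beyond leaving them out, after which 54 genes were called higher and 26 lower.

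Other cell types left little trace. Of 12 T cell markers, 9 were at 0 in both groups (Cd3e, Cd8a and Trac among them), and cells held at most 1 UMI of the list in the YFP-high and 0 in the YFP-negative group. Of 12 B and plasma cell markers, 8 were at 0, including Cd79a, Ms4a1 and Jchain, with at most 9 and 5 UMIs per cell. Of 15 stromal, endothelial and neural markers 11 were at 0, and Vim, at 1129 against 840 CPM, made up most of the rest. Paneth markers other than Reg4, enterocyte markers and tuft markers were not called. Enterocyte markers lay above 0 in 7 of 7 measured, with a median of 0.52. Immediate early and dissociation genes (0 of 13 called, median -0.03), heat shock genes (0 of 10, -0.07) and folding genes of the endoplasmic reticulum (0 of 15, 0.01) were close between the groups. Of 16 oxidative phosphorylation genes, 2 were higher (Cycs 0.63 and Atp5e 0.61), and the median was 0.17.

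**Figure D4:**
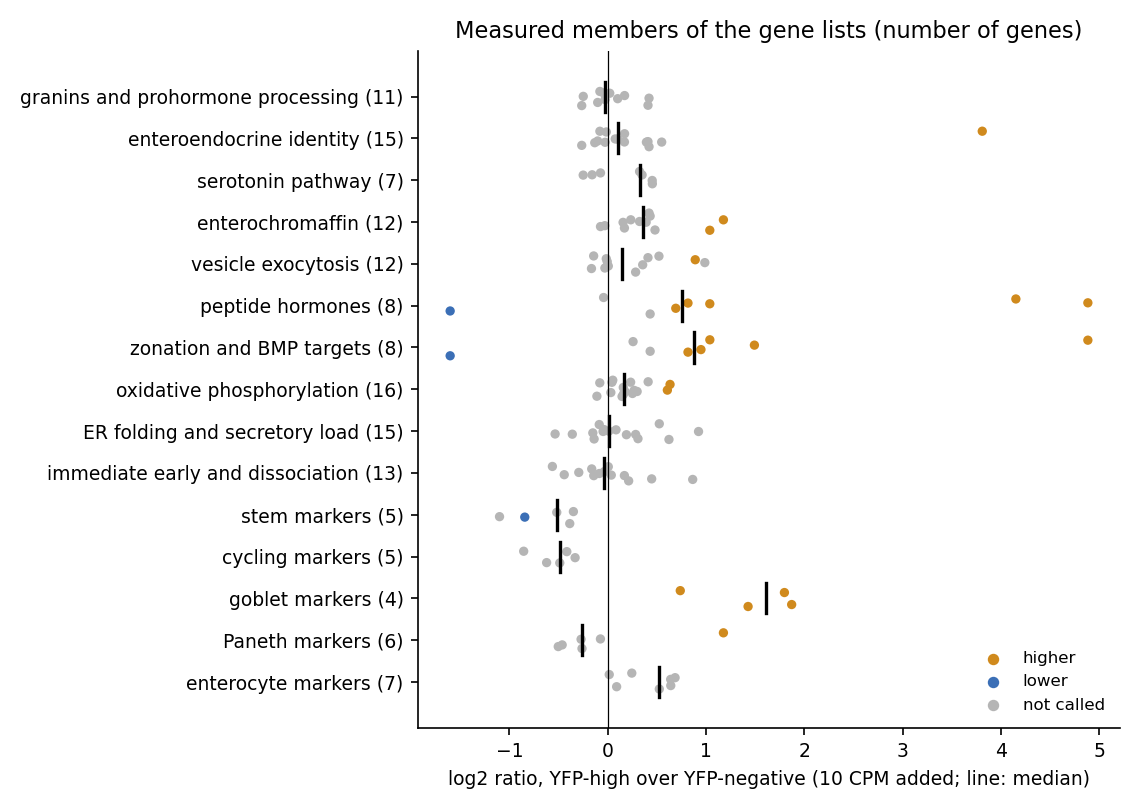
Log2 ratio, YFP-high over YFP-negative cells (10 CPM added), of each measured member of 15 gene lists, with black lines at the list medians and colours for genes called higher or lower; numbers in brackets are genes. Granin and identity genes centre near 0 apart from Isl1, stem and cycling markers lie left of 0, and goblet markers and 7 of 8 zonation genes lie right of it.

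On the lower side, stem and cycling markers shared a direction with 1 call among them. All 5 measured stem markers were below 0, with a median of -0.52, and Slc12a2, a chloride cotransporter of crypt base cells, was the 1 called (200 against 367 CPM, -0.84). Olfm4, an abundant stem cell marker, had 1031 CPM (958 to 1108) and 1480 CPM (1292 to 1688), with a log2 ratio of -0.52. It was found in 70.6% and 76.7% of cells, and 5 of 30 YFP-negative cells held 164 of 222 UMIs. All 5 cycling markers were below 0 too, with a median of -0.49 and none called; Top2a was at -0.85 and Mki67 at -0.33. Without the 5 highest cells of each group Slc12a2 was at 0.30. That drop takes a larger share of the 30 YFP-negative than of the YFP-high cells, so it moves ratios upwards.

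The lower genes named by rule were all sparse, and their calls rested largely on the draw. Of the 27 called, 8 met the naming rule. Such a gene must be found in at least 10% of the cells and still differ 1.5-fold without the 5 richest cells of each group. Leaving out 5 cells takes a larger share of the 30 YFP-negative cells, and 59 of the 61 higher genes met the rule. The second draw called 1 of these 8 lower genes again and scaling without a draw called 0, while all 8 kept their direction in both. Pola1 (ENSMUSG00000006678), the catalytic subunit of the primase-bound DNA polymerase alpha, had 27 UMIs against 23, 37.8 CPM (24.9 to 54.9) against 153 (97.2 to 230), and was 4.06-fold higher in YFP-negative cells. It was found in 17.5% (11.6 to 24.7%) of YFP-high and 50% (31.3 to 68.7%) of YFP-negative cells. Without thinning, at unequal depth, the shares were 43.2% of 146 and 38% of 50 cells. Its levels over the 4 YFP classes, which also differ in depth, were 153, 58.8, 40.5 and 34.4 CPM. Prom1, the gene of the membrane protein CD133, was at 76.9 against 167 CPM (-1.02). Dek, a chromatin protein of dividing cells, was at 130 against 233 CPM (-0.80) and found in 42.7% and 73.3% of cells. Aaed1 (-1.25), the zinc finger gene Hivep1 (-1.18), Rassf4 (-1.13), the mitochondrial outer membrane protein gene Tspo (-1.05) and the kinase gene Pkn2 (-0.94) completed the set. In 7 of these 8 genes the intermediate cells lay between the outer groups; the exception was Hivep1. Of the 12 higher genes named, 7 had intermediate cells in between, and Ghrl, Gip, Agr2, Fabp5 and Spink4 did not.

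**Figure D5:**
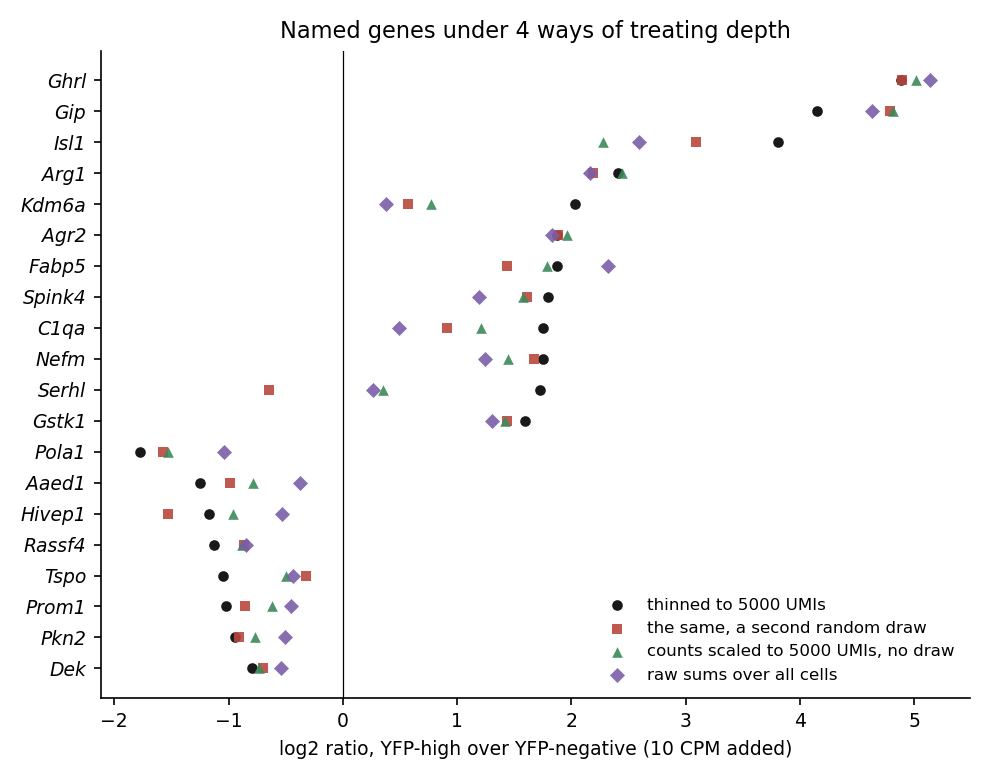
Log2 ratio, YFP-high over YFP-negative cells (10 CPM added), of the 12 higher and 8 lower named genes under 4 treatments of depth: thinned to 5000 UMIs, a second draw, counts scaled without a draw, and raw sums over all 196 cells. The 4 values lie close for Ghrl and Agr2, spread for Kdm6a, and cross 0 for Serhl (-0.64 in the second draw).

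Within the cells with at least 5 Tph1 UMIs the picture was nearly the same, because they made up most of both groups. This stratum also holds cells rich in peptide hormones, 1 of them with 416 Gip UMIs. Without such cells, 121 of its 139 YFP-high and 24 of its 29 YFP-negative cells compared after thinning were left. Tph1 was at 5 UMIs or more in 142 of 146 YFP-high (97.3%; 93.1 to 99.2%), 100 of 107 intermediate and 36 of 50 YFP-negative cells (72.0%; 57.5 to 83.8%). This cut is on raw UMIs and so depends on depth. Among cells with at least 5000 UMIs, 139 of 143 YFP-high and 29 of 30 YFP-negative cells met it, and these were compared after thinning. Of 3052 tested genes 59 were higher (1.93%) and 29 lower (0.95%). Gip (20.7-fold, 12.3 to 37.9) and Isl1 (63 UMIs against 0, with a counting interval of the ratio from 3.46-fold) led again. Ghrl stood at 414 UMIs against 12, 7.20-fold (4.08 to 14), and 1476 of its UMIs were in the 4 YFP-high cells below 5 Tph1 UMIs. Id1 (1.49), Id2 (1.11), Id3 (1.2), Sct (0.77), Reg4 (1.18), Rab3c (0.87) and Cdkn1a (0.62) stayed higher, and Slc12a2 (-0.60) and Cck (0.50) were no longer called. Named here beyond the genes above were Lsm14a, an RNA-binding protein gene (56 UMIs against 2, 5.84-fold, 1.54 to 49.4), and on the lower side Igfbp2, which encodes an insulin-like growth factor binding protein (44.6 against 193 CPM, -1.90), Plscr1 (-1.19), Smndc1 (-1.15), Sorbs2 (-1.15) and AY761184 (-1.14), a defensin-type gene of a family with near-identical copies.

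Below 5 Tph1 UMIs the split held 4 YFP-high, 7 intermediate and 14 YFP-negative cells, and 1 YFP-negative cell reached 5000 UMIs, so no count of genes is given. The YFP-negative cells were shallow, at a median of 2485 UMIs against 11411 in the 4 YFP-high cells. Thinned to 2000 UMIs, 4 and 9 cells remained. In the 4 YFP-high cells Ghrl stood at 0, 40, 187 and 436 UMIs. The cell with 187 Ghrl UMIs also held 103 of Cck and 17 of Gcg, and the cell without Ghrl held 10 Tac1 UMIs and 0 of Cck, Gip and Gcg. The 9 YFP-negative cells had at most 1 Ghrl UMI each. Chgb ran from 33 to 293 UMIs in the 9 cells and from 0 to 94 in the 4, and Reg4 from 1 to 118 against 0 in all 4. Thus 3 of the 4 YFP-high cells of this stratum carried Ghrl, 1 of them with Cck, and the YFP-negative ones carried Chgb and Reg4 at low depth.

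The split was repeated where the rule had not looked and within parts of it. Outside the tag rule, 19 YFP-high and 17 YFP-negative cells with at least 20 Chga UMIs reached 5000 UMIs; the named genes had the same direction in 8 of 12 higher and 6 of 8 lower genes. There Arg1 (2.06), Id1 (0.90) and Id2 (0.80) were above 0, Gip was at 0.20, and Sct (-1.40), Rab3c (-1.05) and Fam183b (-0.63) were below 0. The labels name 1 mouse, yet the cells included some with Xist UMIs and some with Y-linked UMIs. Among selected cells, YFP-high cells were 45.9% of 133 cells that held 3 or more Xist UMIs but no Y-linked one, and 45.3% of 86 cells with a Y-linked UMI and at most 2 Xist UMIs. A further 46 of the 146 YFP-high and 17 of the 50 YFP-negative cells fell in neither set, and the reason was not tested. Such cells held both kinds of UMI or too few of either. Among the 143 and 30 cells compared after thinning, the share in neither set was larger in the YFP-high group. YFP-high cells rich in peptide hormones lay in the Xist set (1 with 979 Ghrl UMIs), the Y-linked set (1 with 416 Gip UMIs) and in neither (1 with 353 Cck UMIs). In the first set (60 against 14 thinned cells) 11 of 12 higher and 7 of 8 lower named genes kept their direction, and in the second (37 against 11) 10 and 8 did. Sct was at 0.17 in the first and 2.98 in the second, Reg4 at 0.25 and 1.42, Id1 at 1.17 and 1.81, and Ghrl at 6.52 and -0.37; the difference between the sets was not tested. In cells of 8000 to 30000 UMIs (102 against 13), 12 of 12 higher and 8 of 8 lower named genes kept their direction, with Prom1 at -0.01, but 6 of the 12 and 0 of the 8 were still called. Within the Tph1 stratum 8 of 8 and 7 of 8 kept their direction there, and 2 and 0 were called. Over all genes tested in this window 41 were higher and 30 lower, of which 17 and 3 were among those called at all depths.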

How the data were processed

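The deposited matrix holds whole-number UMI counts per gene and cell for 2335 cells, and a second deposited table holds hashtag antibody counts for 4 tags; per the submitters' processing notes the authors used Cell Ranger and Seurat, whose versions are not given in the sources used here. These notes name a human genome build while the genes are mouse genes, so no coordinates are taken from the files. The cells, gene lists and cuts were chosen with earlier results of these data known.

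Each cell was thinned without replacement to 5000 UMIs with a fixed seed, and sums over the cells of a group are given as CPM with exact Poisson intervals (95%). Log2 ratios have 10 CPM added to both levels. Shares of cells have exact Clopper-Pearson intervals. Genes with fewer than 50 UMIs over both groups were not tested. Genes named in the text are the 12 highest and 12 lowest of those called (8 and 8 among cells with at least 5 Tph1 UMIs) that were found in at least 10% of the cells of the higher group and stayed 1.5-fold apart without the 5 richest cells of each group. The reporters, Chga, Tph1, mitochondrial, Xist, Y-linked and unnamed genes were left out, and list members are named by their UMIs or calls. Dropping 5 cells takes a larger share of the 30 YFP-negative than of the 143 YFP-high cells.

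Scrublet, as run in scanpy 1.11.5, marked 2 of 2335 cells with its own threshold and so did not work. As an alternative, the 140 cells (6%) that scored highest were dropped. They included 24 of the 146 YFP-high, 20 of the 107 intermediate and 8 of the 50 YFP-negative cells. Without them the 12 higher and 8 lower named genes kept their direction, but 7 and 5 were still called. The calling steps were tested on simulated data. Python 3.11.15, numpy 2.4.6, pandas 2.3.3, scipy 1.17.1 and matplotlib 3.10.9 were used. The Chga promoter is from the RefSeq table of GRCm38.p6.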

Additional observations from a re-analysis of the deposited data

How the results depend on the processing

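Counts of called genes are given here as higher and lower in all selected cells, then higher and lower in cells with at least 5 Tph1 UMIs; as reported they were 61, 27, 59 and 29. They were 31, 14, 31 and 8 when thinned to 2000 UMIs, and 121, 87, 95 and 63 at 10000 UMIs, where tdTomato moved from -0.04 to 0.69. Raw sums gave 167, 127, 179 and 115, and means of the cells' CPM 154, 60, 143 and 53. YFP of at least 5 UMIs gave 39, 14, 37 and 14, and a gene minimum of 200 UMIs 34, 6, 31 and 5. The cells with Xist UMIs gave 29, 16, 24 and 7, and those with Y-linked UMIs 29, 14, 29 and 14. Without a gene minimum the lower counts were 62 and 58. Without the 5 richest cells per gene, a larger share of the YFP-negative group, they were 9 and 13. In cells of 8000 to 30000 UMIs, 31 genes were higher in the Tph1 stratum. Alternatives chosen after seeing the data gave 15 lower genes in all selected cells, and 36 higher and 15 lower in the Tph1 stratum, with counts scaled without a draw, and 19 lower in that stratum without cells rich in peptide hormones.

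Of 828 log2 ratios of named genes (36 gene results under 23 alternatives), 480 kept their call, 325 kept their direction without the call and 23, in 13 gene results, changed direction. For each gene, values for the Tph1 stratum are marked as such. Kdm6a was at -0.23 and, in the Tph1 stratum, -0.05 at 2000 UMIs, and at -0.15 with mean CPM. Serhl was at -0.02 at 2000 UMIs and -0.64 with the second draw. Hivep1 was at 0.31 and (Tph1 stratum) 0.25 at 10000 UMIs, and at 0.25 and (Tph1 stratum) 0.23 in cells with Xist UMIs. Sorbs2, in the Tph1 stratum, was at 0.16 in cells of 8000 to 30000 UMIs and 0.31 in cells with Xist UMIs. Agr2 was at -0.24 and (Tph1 stratum) -0.36 in cells with Xist UMIs, and Nefm at -0.44 in those with Y-linked UMIs. Ghrl was at -0.10 in cells with Xist UMIs of the Tph1 stratum, at -0.37 in all selected cells and -0.37 in the stratum in cells with Y-linked UMIs, at -0.01 and -0.34 without the richest 5% of cells, and at -0.46 and -0.50 without cells rich in peptide hormones. Gip was at -0.73 and -0.66 without those cells. The cause was not tested. Alternatives were not run below 5 Tph1 UMIs, where 1 YFP-negative cell reached 5000 UMIs. No paired analysis was possible because 1 gene expression library holds all cells. Intervals cover counting error, and neither the spread between mice nor that between libraries can be measured here.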

Other observations

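Among genes that no comparison above describes, interferon-response genes were close between the groups: 0 of 10 measured were called and their median log2 ratio was 0.04. The reported reserve stem cell genes, of which 2 were measured, had a median of -0.20 with none called. Of 8 measured ion channel and excitability genes 0 were called, with a median of -0.16. Scn3a, a sodium channel subunit, was at 622 against 713 CPM, and Trpa1, an irritant-sensing channel of enterochromaffin cells, at 648 against 580 CPM.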
